A study of Rattus norvegicus with 5 samples.

Results

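The nuclear-encoded subunits of the oxidative phosphorylation system were examined in cultured rat cells of the dorsal root ganglion, where the cell bodies of sensory neurons lie among their glia. Members were taken by symbol from the gene-level table: the Nduf genes of complex I, Sdha to Sdhd, the Uqcr genes with Cyc1, the nuclear Cox4 to Cox8 genes and the Atp5 genes, leaving out Ndufa4l2. This gave 88 of the 33014 genes in the table. Of these, 85 stood on lists of known subunits or regulators, and 3 did not (Atp5hl1, Cox6c-ps1 and Cox7a2l2). The samples were 5 RNA-seq libraries, replicates 1 to 5 of 1 group. Every library came from wild-type Sprague Dawley pups of postnatal day 10, plated at 5000 cells per well, given PBS (a salt solution without drug) after 1 day and kept for 8 days. Each sample pooled 3 wells. The labels describe ganglia from a litter of 10 pups and give no word on whether the samples were prepared separately, so spreads and p-values measure differences between these libraries, which may be technical. The group has no untreated or drug-treated counterpart, and the comparisons below are between genes within the libraries.

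Oxidative phosphorylation makes most of the ATP of a resting neuron. Complexes I and II pass electrons from NADH and succinate to ubiquinone, complex III passes them to cytochrome c, complex IV passes them to oxygen, and complex V, the ATP synthase, uses the resulting proton gradient. Most subunits are encoded in the nucleus and imported, while a core set is encoded by mitochondrial DNA. Several subunits of complexes IV and V exist as paralogs used in different tissues. No mitochondrially encoded subunit was found in the table under either of its usual names, so those genes were not analysed here.

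Levels are TPM, the estimated reads of a gene divided by its effective length and scaled to the same total in each library, and are given as mean ± SD over the 5 libraries. Libraries held 21596608 to 27913098 estimated reads, of which 149844 to 191380 were recovered for members (the sum over 78 genes). The labelled tissue was checked on marker lists: 10 of 10 neuronal, 9 of 9 Schwann cell, 5 of 5 satellite glia, 6 of 6 fibroblast and 8 of 8 macrophage genes were detected, against 2 of 6 endothelial genes. The libraries therefore hold RNA of several cell types. In such bulk samples, fewer cells of a type and less RNA per cell cannot be told apart, and no level below is assigned to neurons or glia.

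Nearly the whole set was expressed. Detection here means at least 1 TPM in every library, and 81 of 88 members met it, 92.0%, where 41.3% of all genes did. The median member stood at 220 TPM, and the median detected member at 232 TPM, beside 20.5 TPM for all detected genes. Of the detected members, 71 were above 100 TPM, a level reached by 12.6% of detected genes, and 66 lay in the top 10 percent of detected genes (123.7 TPM or more). Together the members took 25454 ± 290 TPM (SD, n = 5), between 2.51% and 2.57% of the summed TPM of a library, which is not their share of reads. The members with a length estimate were short: their median effective length was 379 bases, against 2274 bases for detected genes. Across 79 members TPM and effective length had a Spearman correlation of -0.44, and across 12913 detected genes one of -0.26. These are descriptions across genes, which are not independent, and TPM already divides by length, so both quantities share that estimate.

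**Figure D1:**
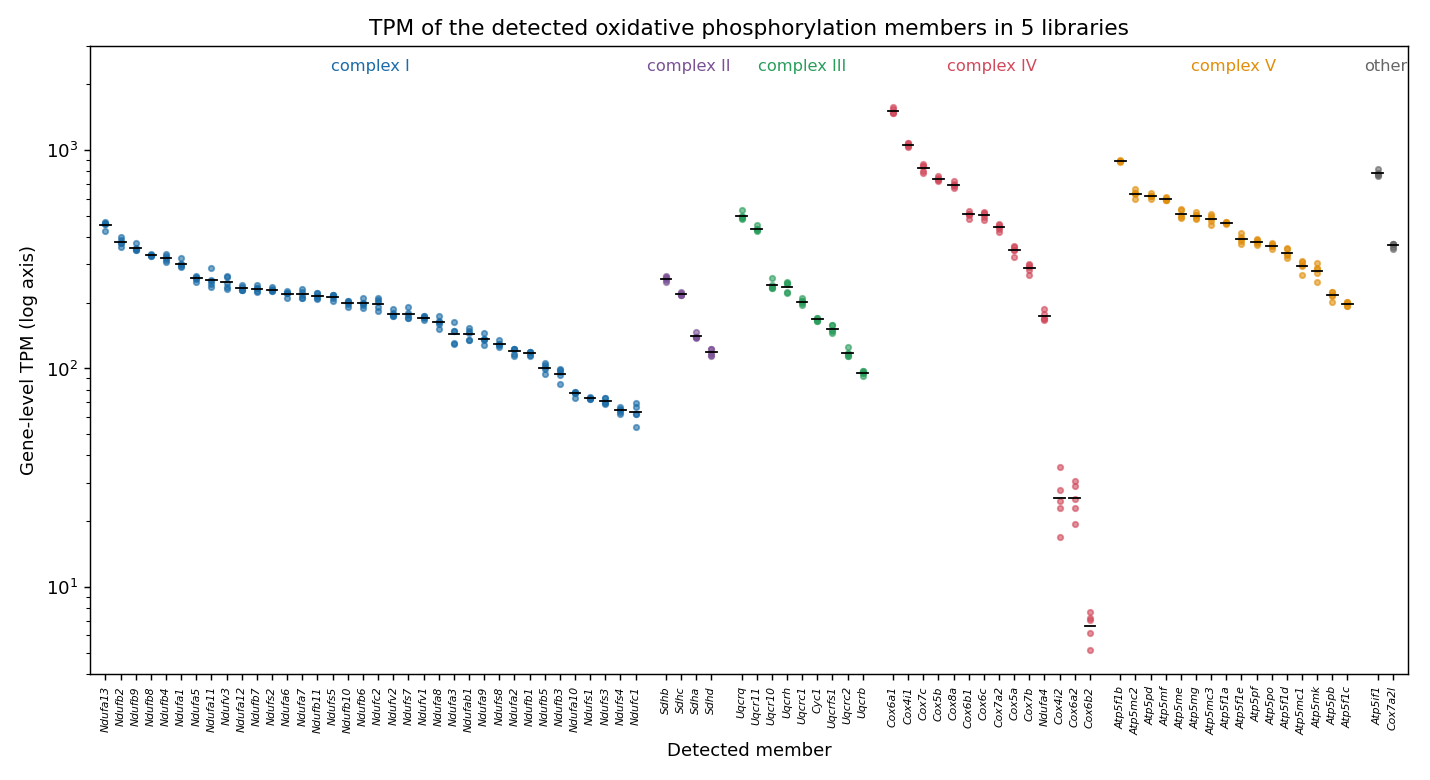
Gene-level TPM on a log axis (vertical) of the 81 detected members (horizontal), grouped by complex and sorted by mean; points are the 5 libraries and the black line is their mean. Complexes IV and V hold the highest members, led by Cox6a1 at 1516 TPM, and 3 complex IV genes, Cox4i2, Cox6a2 and Cox6b2, lie below all others.

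The complexes differed in TPM, a level per length. Their order in reads not divided by length was not worked out. The median over detected members was 474 TPM in complex IV and 429 TPM in complex V, and 202, 199 and 180 TPM in complexes III, I and II. In all 5 libraries the medians of complexes IV and V were above those of the other complexes, and the median of complex IV was above that of complex V by 1.06 to 1.15 times. The order of complexes IV and V rests on leaving out the 3 undetected genes of complex IV: over all members the median of complex IV was 324 to 363 TPM and that of complex V 420 to 440 TPM, so complex V was then the higher one in every library. Complexes III and I, neighbours in this order, were not separated, since the median of complex I was the higher one in 2 of 5 libraries. Complex II was below complex I in 5 of 5 libraries, by 1.06 to 1.12 times. Summed over members, complexes V, IV and I took similar amounts, 7168 ± 86.8, 7165 ± 105 and 7085 ± 65.1 TPM, from 16, 17 and 37 members. These sums leave out rows without a symbol that are described below, such as LOC679739 at 236 TPM and LOC103693330 at 348 TPM. The order of these sums is therefore not read as a result. Complex III summed to 2150 ± 37.6 TPM from 9 members and complex II to 736 ± 8.09 TPM from 4 members.

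Within complex I, which oxidises NADH, 36 of 37 members were detected and none exceeded 500 TPM. The 7 nuclear core subunits, which carry the flavin and iron-sulfur clusters, had a median of 171 TPM, and the detected accessory subunits one of 213 TPM. The highest members were accessory subunits: Ndufa13 at 454 ± 15.3 TPM, Ndufb2 at 380 ± 14.7 TPM and Ndufb9 at 356 ± 11.4 TPM. At the other end stood Ndufs4, an accessory subunit whose loss causes Leigh syndrome in people, at 64.3 ± 1.87 TPM, and Ndufc1 at 62.9 ± 5.98 TPM. The detected members thus spanned 7.22-fold.

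Core partners of complex I were unequal in part. Ndufs1, the largest iron-sulfur subunit, was at 72.6, 72.3, 74.0, 73.25 and 73.25 TPM in replicates 1 to 5. Ndufv1, the flavin subunit beside it, was at 173, 167, 172, 170 and 174 TPM. All 5 values of Ndufs1 were below all 5 of Ndufv1, with a log2 ratio of -1.23 ± 0.02 (SD, n = 5). The size of this ratio depends on division by length: it was -0.41 in reads not so divided. Over named transcripts alone it was -0.40, but those leave out the unnamed Ndufv1 form of 1578 bases, which held 43.5% of Ndufv1. Ndufv1 and its iron-sulfur partner Ndufv2 (178 ± 6.01 TPM) overlapped, and Ndufv1 was the higher one in 1 of 5 libraries (log2 ratio -0.06 ± 0.04). In reads not divided by length their log2 ratio was 1.04, and over named transcripts alone, where the same Ndufv1 form is missing, -0.88. Ndufs7 and Ndufs8, which carry clusters close to the ubiquinone site, stood at 177 ± 8.87 and 130 ± 3.65 TPM and did not overlap.

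Complex II, succinate dehydrogenase, also belongs to the citric acid cycle. Its iron-sulfur subunit Sdhb (258 ± 5.99 TPM) was above its flavoprotein Sdha (140 ± 3.21 TPM), and its membrane anchor Sdhc (220 ± 2.65 TPM) was above the other anchor, Sdhd (119 ± 4.38 TPM). Neither pair overlapped in any library, with log2 ratios of Sdha to Sdhb of -0.87 ± 0.06 and of Sdhc to Sdhd of 0.89 ± 0.04. The order of Sdha and Sdhb holds per length only: the Sdha message is long, and without division by length Sdha had more reads than Sdhb, with a log2 ratio of 0.64.

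Complex III was led by its small subunits, Uqcrq at 501 ± 19.8 TPM, Uqcr11 at 436 ± 10.9 TPM and Uqcr10 at 241 ± 11.2 TPM. Its core protein Uqcrc1 (202 ± 6.0 TPM) was above the other core protein, Uqcrc2 (118 ± 4.52 TPM), in 5 of 5 libraries. The subunits that carry electrons were close to each other. Cyc1, cytochrome c1, was at 171, 166, 171, 166 and 167 TPM, and Uqcrfs1, the Rieske iron-sulfur protein, at 149, 148, 146, 159 and 158 TPM. The groups of values did not overlap, but the log2 ratio was 0.14 ± 0.07. The lowest member of complex III was Uqcrb at 95.7 ± 2.06 TPM.

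Complex IV, cytochrome c oxidase, held both the highest and the lowest detected members, 228-fold apart. Cox6a1 led at 1516 ± 45.2 TPM, followed by Cox4i1, the largest nuclear subunit, at 1060 ± 18.9 TPM, and Cox7c at 831 ± 34.0 TPM. Cox5b, which binds zinc, was at 739 ± 17.0 TPM and Cox5a at 349 ± 15.5 TPM, a log2 ratio of Cox5a to Cox5b of -1.08 ± 0.06. Ndufa4, first described in complex I and now placed in complex IV, was at 174 ± 8.14 TPM, with a log2 ratio to Cox4i1 of -2.61 ± 0.07.

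The paralogs of complex IV showed the widest gaps. For each subunit with a widely expressed and a tissue-restricted form, the widely expressed form was higher in 5 of 5 libraries. Cox4i2, known from lung and from oxygen sensing, was at 16.8, 24.6, 22.9, 35.2 and 27.8 TPM. Cox4i1 was at 1035, 1082, 1073, 1061 and 1047 TPM in the same libraries, so Cox4i2 was 2.35% of the sum of both. The log2 ratio was 5.41 ± 0.38, and its spread came mainly from Cox4i2, which was lowest in replicate 1 and highest in replicate 4.

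The heart and muscle form Cox6a2 was at 30.4, 25.2, 29.1, 22.9 and 19.5 TPM and made up 1.65% of the sum with Cox6a1. The log2 ratio of Cox6a1 to Cox6a2 was 5.91 ± 0.28. The testis form Cox6b2 was at 5.13, 6.16, 7.04, 7.18 and 7.68 TPM, backed by 18 to 28 reads per library, beside 508 ± 15.6 TPM for Cox6b1, a log2 ratio of 6.25 ± 0.19. All 3 minor forms were thus above 1 TPM in every library but far from the range of their partners.

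Of the Cox8 forms, only the widely expressed one met the detection rule. Cox8a was at 694 ± 19.4 TPM. The muscle form Cox8b was at 1.12, 1.84, 0.598, 0 and 0.626 TPM, 7 reads in all, which allow 0.325 to 1.66 TPM (exact Poisson 95% interval, counting error only). The testis form Cox8c had 3 reads in all, at 0.132 TPM (0.0276 to 0.392 TPM). Cox7b was at 288 ± 13.2 TPM and the testis form Cox7b2 was listed at 0 in all libraries, with no reads that could be joined to it, so no fold is given.

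The muscle form Cox7a1 has no row under that symbol. The row LOC687508 carries the gene number that the newer assembly GRCr8 gives to Cox7a1, and it was at 3.23 ± 0.31 TPM; it was chosen after its values were seen. Cox7a2, the widely expressed form, was at 444 ± 14.6 TPM, a log2 ratio of 7.06 ± 0.13 to that row. Cox7a2l, a relative of Cox7a2 that joins complexes III and IV in supercomplexes, was at 366 ± 7.90 TPM, below Cox7a2 in 5 of 5 libraries by a log2 difference of 0.28 ± 0.06. That order too holds per length only, since in reads not divided by length the log2 ratio of Cox7a2 to Cox7a2l was -1.55. Cox7a2 overlaps the gene Tmem30a in the reference table, and without a known strand setting its level is uncertain.

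**Figure D2:**
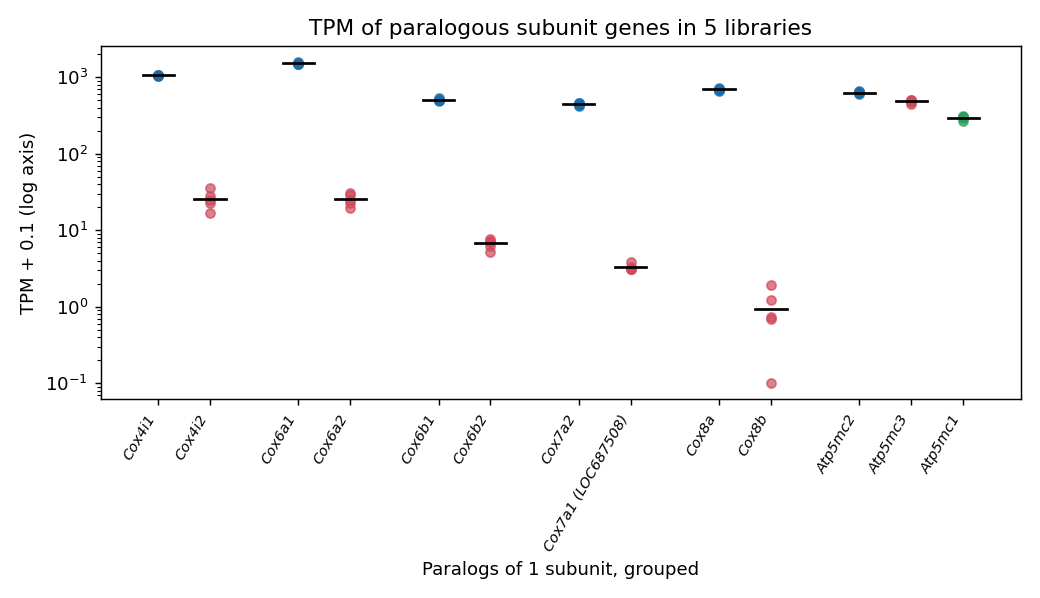
TPM + 0.1 on a log axis (vertical) of paralogous subunit genes (horizontal), 5 points per gene for the 5 libraries with a black line at their mean; colours mark the order within a group. For complex IV the widely expressed form is far above the other in each library, while the 3 genes of the ATP synthase c subunit lie within 2.14-fold of each other on average.

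Markers of striated muscle and male germ cells were low, and those of mural and smooth muscle cells were mixed. Of 10 striated muscle genes 6 were detected, their summed level was 19.99 to 24.4 TPM, and Ckm, Myh1, Myh2 and Myh4 were not detected, with Ckm at 0.778 TPM. Of 8 male germ cell genes none was detected, with sums of 0.248 to 0.901 TPM and Prm1, Prm2, Tnp1, Tnp2 and Akap4 listed at 0. Of 8 mural and smooth muscle genes 7 were detected, and their sum was 214 to 388 TPM. Most of it came from Tagln at 150 ± 33.2 and Acta2 at 110 ± 33.0 TPM. Pdgfrb was at 36.9 TPM, Cnn1, Myh11, Des and Notch3 were at 2.41 to 5.50 TPM, and the pericyte gene Rgs5 was not detected. The median of this list was 4.93 TPM, beside 2.21 TPM for the striated muscle list. The part of such cells in the levels of Cox4i2, Cox6a2 and Cox6b2 was not tested.

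Complex V was detected in full, 16 of 16 members. The catalytic β subunit Atp5f1b was highest at 893 ± 9.04 TPM. The α subunit Atp5f1a, present in the enzyme in equal number, was at 465 ± 3.05 TPM. The values of Atp5f1a were 469, 461, 463, 466 and 466 TPM and those of Atp5f1b were 893, 889, 895, 881 and 905 TPM, so the log2 ratio of -0.94 ± 0.02 had the smallest SD of the 22 pairs computed. The γ subunit Atp5f1c, the rotating shaft, which is present in lower number than β, was lowest at 198 ± 4.93 TPM, and the stalk subunit Atp5pb was next at 217 ± 9.50 TPM. Atp5pd, of the same stalk, followed the c subunit gene Atp5mc2 in level at 617 ± 13.7 TPM. Atp5if1, the inhibitor that blocks the enzyme from running backwards, was at 782 ± 24.03 TPM, a log2 ratio to Atp5f1b of -0.19 ± 0.05. Its message is short, and in reads not divided by length that log2 ratio was -2.84; the log2 ratio of Atp5f1b to Atp5f1c, 2.17 ± 0.03 in TPM, was 3.09 in such reads.

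The c subunit, which forms the rotating ring in the membrane, is encoded by 3 genes with the same mature protein, and all 3 were expressed. Atp5mc2 was at 662, 634, 629, 636 and 600 TPM. Atp5mc3 was at 454, 475, 508, 501 and 487 TPM. Atp5mc1 was at 267, 307, 294, 311 and 298 TPM. The order mc2, mc3, mc1 held in 5 of 5 libraries without overlap. The shares of their summed level were 44.8% ± 1.81, 34.3% ± 1.11 and 20.9% ± 1.00 (SD, n = 5). The sum itself, 1412 ± 28.5 TPM, varied less between libraries than the share of Atp5mc2: replicate 1 had the highest Atp5mc2 and the lowest values of both others. In reads not divided by length, the log2 ratio of Atp5mc3 to Atp5mc2 shrank from -0.38 to -0.07.

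Over the 22 pairs that could be computed of 23 chosen, the values of 21 did not overlap between libraries. That share says little, since 92.9% of all pairs of detected genes did not overlap either. The first gene as listed was higher in every library in 14 pairs, the second in 7, and 1 pair was mixed. Of 12 pairs listed as partners 4 lay within 1.5-fold and 4 were over 2-fold apart per length. The 12 include Atp5f1b with Atp5f1c, which differ in number in the enzyme, and the inhibitor Atp5if1 with Atp5f1b. The shares of all gene pairs within these folds were not counted, so the counts are not read as a trait of partners. The exact two-sided sign-flip test over 5 libraries gave p = 0.062 for each of the 21 pairs, the smallest value it allows, and p = 0.125 for Ndufv1 and Ndufv2, so no pair could pass 0.05. These pairs were chosen with earlier results known.

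Besides Cox8b, Cox8c and Cox7b2, the members not detected were Ndufs6, Atp5hl1, Cox6c-ps1 and Cox7a2l2. The row Ndufs6, named for a zinc-binding complex I subunit, was at 0 TPM in all libraries but replicate 4, where it was at 0.561 TPM. In the GRCr8 table the gene number of Ndufs6 belongs to the row LOC679739, which was at 234, 236, 229, 230 and 249 TPM, above the complex I median of 199 TPM. The former row may stand for what that table calls a pseudogene, Ndufs6-ps1, but this was not settled. Ndufs6 is therefore not described here as absent. Atp5hl1 averaged 1.24 TPM but ranged from 0.248 to 2.00 TPM, Cox6c-ps1 was at 0.0873 TPM from 4 reads, and Cox7a2l2 had no read, which allows up to 0.205 TPM (3 reads over the 5 libraries).

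Other rows without a symbol also belong to this family. By gene number, 18 such rows carry names of the same pattern in GRCr8, and 6 of them were detected. LOC103693330, named Atp5mkl1 there, was at 374, 338, 335, 361 and 331 TPM. Atp5mk, the ATP synthase membrane subunit it resembles, was at 249, 272, 289, 284 and 303 TPM. The copy was higher in 5 of 5 libraries, with a log2 ratio of Atp5mk to the copy of -0.32 ± 0.17, and reads the genes share are divided between them by the authors' model. The pseudogenes LOC120099865 (Atp5mpl-ps1) and LOC103693430 (Atp5mk-ps2) were listed at 168 ± 2.20 and 77.6 ± 7.73 TPM, and LOC100912557 (Atp5mpl) at 41.9 ± 5.65 TPM. These rows were chosen after their values were seen. A named copy exists in the reference table for 47 members, so small levels next to an abundant copy are uncertain.

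Most members had a single transcript. Of 74 detected members whose reads could be recovered from the transcript files, 49 had 1 listed transcript and 11 had 2 or more transcripts that each held at least 10% of the gene's TPM. The forms of Atp5mc1 of 561 and 635 bases held 50.1% ± 2.74 and 48.2% ± 2.55 of its level. Those of Ndufv1 of 1506 and 1578 bases held 56.5% ± 1.62 and 43.5% ± 1.62. The form of Cox6a2 of 524 bases held 73.0% but ranged from 49.9% to 91.0%, at 71 to 118 reads per library. The shares of Atp5mc1 and Ndufv1 thus differed less between libraries than those of the scarce gene Cox6a2. Not every abundant gene was as even: the main form of Ndufb5, a gene at 101 TPM, ranged from 65.9% to 77.6%.

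The spread between libraries was asked of the recovered reads with edgeR, as a goodness of fit to counting error alone (adjusted p under 0.05 over 11312 genes). Of 74 members tested 19 varied beyond counting error, 25.7%, where 30.5% of all genes tested did; 36 members were under an unadjusted p of 0.05, where 41.7% of all genes tested were. Power rises with reads, so backgrounds of similar level or reads were added after seeing the data. Among genes of 100 TPM or more, 18 of 65 members were called, where 58.7% of such genes were. Among genes with 500 to 5000 reads per library, which matches the members better because they are short, 15 of 65 members were called, where 34.2% of such genes were. Without replicate 1 or without replicate 2 the number of members called fell to 13, or 17.6%, while the share of all genes tested fell to 18.5% and 23.4%. Without replicate 4 it was 27.0% of members and 26.9% of all genes, so the gap between members and background was not seen in every such set.

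The biological coefficient of variation (BCV), edgeR's estimate of the spread beyond counting error, was highest for the scarce paralogs. Its median was 3.77% over the members, 5.13% over all genes tested and 3.99% over genes with 500 to 5000 reads. At 100 TPM or more it was 3.79% over members and 3.82% over all genes, so by this estimate members were typical of their level. With DESeq2's dispersion the same medians were 4.37% and 3.89%, so members were then above genes of their level. Estimates are drawn towards a trend and have a lower limit near those of Ndufs1 (3.05%), Ndufb8 (3.09%) and Sdhc (3.11%), the steadiest members. Ndufb8, an accessory subunit, was at 328, 331, 328, 330 and 333 TPM.

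The members of highest BCV were Cox4i2 at 16.8%, Cox6b2 at 9.93%, Cox6a2 at 9.88%, Ndufa3 at 7.54% and Atp5mk at 6.56%. Cox4i2 varied beyond counting error (edgeR, adjusted p = 1.44e-09), with replicate 4 at 35.2 TPM and replicate 1 at 16.8 TPM. Ndufa4l2, which the choice of members leaves out and which is known to rise in low oxygen, was at 13.2, 24.7, 20.1, 31.4 and 27.3 TPM. Its libraries stood in the same order as those of Cox4i2. Ndufa4l2 was picked after its values were seen, and how many other genes share this order was not counted. The part of oxygen in the spread of either gene was not tested. Cox6b2 and Cox6a2 did not pass the test (adjusted p = 0.763 and 0.212), at few reads. Ndufa3, an accessory complex I subunit, was at 131, 129, 163, 148 and 149 TPM and passed (adjusted p = 0.0165), as did Atp5mk (adjusted p = 0.0338). By complex, 5 of 32 tested members of complex I were called, 1 of 3 of complex II, 2 of 8 of complex III, 5 of 14 of complex IV and 6 of 15 of complex V, beside 30.5% of all genes tested; groups this small are not read as different from each other.

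**Figure D3:**
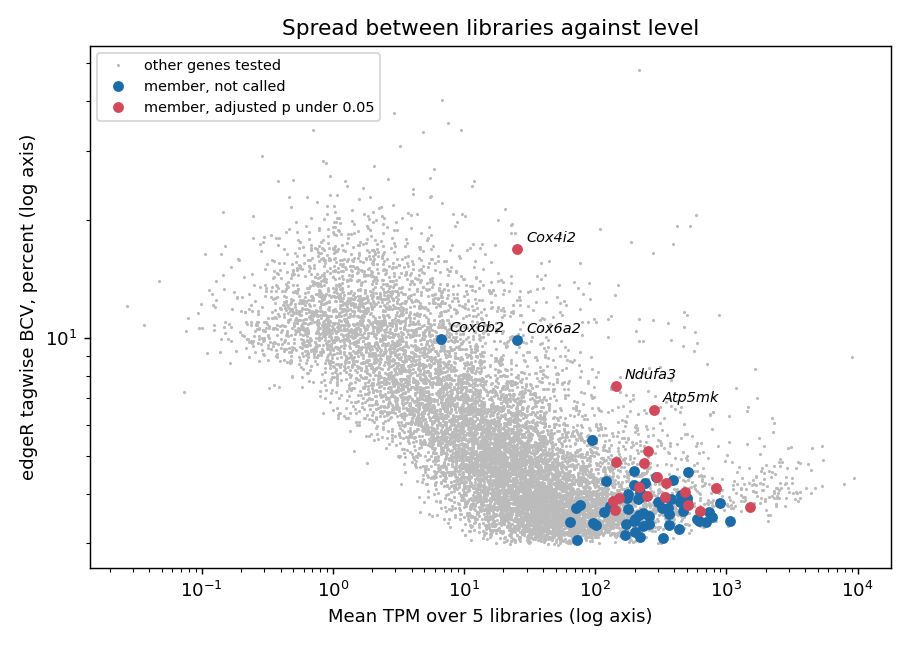
BCV in percent (vertical) against mean TPM (horizontal), both on log axes, for the genes tested (grey) and the members (blue, or red where edgeR's adjusted p was under 0.05). Most members lie among other genes of the same level, and Cox4i2 at 16.8% has the highest BCV of the members.

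The members as a set moved little, about as much as the assembly factors. The mean over detected members of log2(TPM + 0.1), centred on each gene's mean, was -0.03, -0.02, 0.02, 0.02 and 0.00 in replicates 1 to 5, a range of 0.05. Complex IV had a range of 0.12, with replicate 1 lowest at -0.07 and replicate 4 highest at 0.05. Without Cox4i2 that range was 0.07, from -0.03 in replicate 1 to 0.04 in replicate 3. Scored the same way, assembly factors had a range of 0.05 and citric acid cycle genes one of 0.01. Marker lists ranged over 0.66 for macrophage, 0.65 for mural, 0.35 for Schwann cell, 0.15 for neuronal, 0.12 for satellite glia and 0.11 for fibroblast genes. These marker lists held 5 to 10 genes each, against 81 members and 49 assembly factors. A mean over more genes tends to vary less, so the marker ranges are not directly comparable with that of the members. The Schwann cell (-0.24), neuronal (-0.08) and satellite glia (-0.06) scores, like that of the members, were lowest in replicate 1. The macrophage score was lowest in replicate 2 (-0.43) and the mural score in replicate 5 (-0.41). The part of cell composition in the small shifts of the members was not tested.

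**Figure D4:**
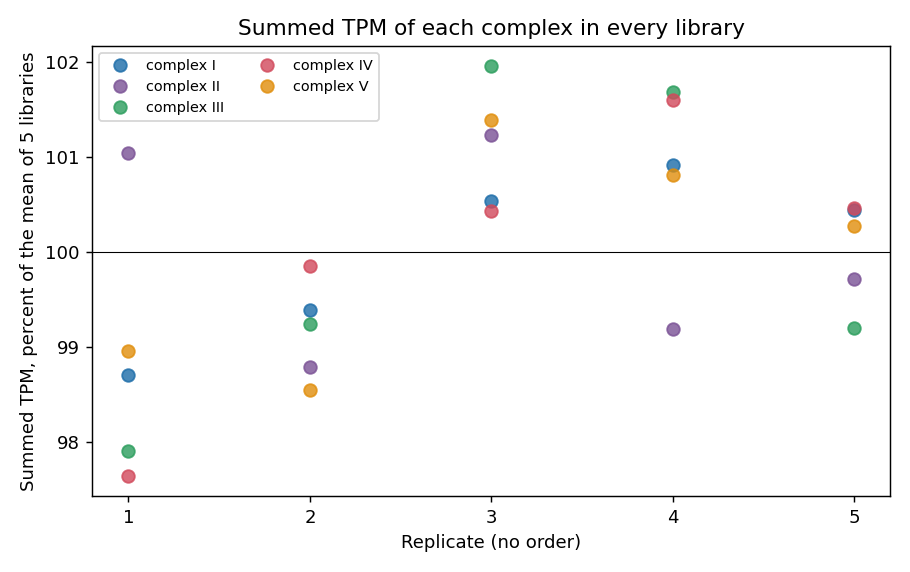
Summed TPM of each complex as a percentage of its own mean over the 5 libraries (vertical), by replicate (horizontal, no order); each point is 1 complex in 1 library. Complexes I, III, IV and V are below their mean in replicates 1 and 2, and all points lie within 3 percent of 100.

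Assembly factors and citric acid cycle genes had lower medians than the subunits, while for cytochrome c and the carriers the order depended on the undetected genes. Of 52 assembly factors, 49 had a row and all 49 were detected, with a median of 25.2 TPM; the highest were Cox14, Cox17 and Uqcc2, at 244 ± 12.4, 210.4 ± 13.1 and 206 ± 15.7 TPM. All 17 genes of the citric acid cycle and pyruvate dehydrogenase were detected, with a median of 94.3 TPM, led by Mdh2 at 245 ± 2.20, Cs (citrate synthase) at 206 ± 2.81 and Pdha1 at 147 ± 1.04 TPM. Of 14 cytochrome c and carrier genes, 10 were detected, with a median of 267 TPM over those, beside 232 TPM for detected members, led by the ADP/ATP carrier Slc25a4 at 536 ± 12.8, the phosphate carrier Slc25a3 at 448 ± 4.32 and the second ADP/ATP carrier Slc25a5 at 322 ± 10.0 TPM. The testis genes Cyct and Slc25a31 and the uncoupling proteins Ucp1 and Ucp3 were not detected. With these included, the median of the 14 genes was 198 TPM, below the 220 TPM of all members.

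Regulators of mitochondrial biogenesis had the lowest median of these lists. Of 17 such genes 16 were detected, with a median of 19.3 TPM over those. The highest were Yy1 at 74.0 ± 3.76, Ssbp1 at 60.8 ± 4.65 and Tfam, which packages and transcribes mitochondrial DNA, at 42.1 ± 2.47 TPM. Ppargc1b, a coactivator, was at 0.835 ± 0.15 TPM and not detected.

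NRF1, the ETS factor GABP and YY1 are known to bind promoters of respiratory chain genes, so the letters of their motifs were sought in the RefSeq promoters of GRCr8 (250 bases before to 50 after the start), which exist for 76 members. The motifs were GCGCA, any base and GCGC for NRF1, CCGGAAG for ETS factors and AAGATGGC for YY1, on either strand. NRF1 letters stood in 14 member promoters (18.4%), against 9.81% of 10508 promoters of detected genes and 4.67% of all 27457 promoters. ETS letters stood in 21 (27.6%, against 17.2% and 9.21%) and YY1 letters in 15 (19.7%, against 5.40% and 3.41%). At least one of these was present in 41 members (53.9%), against 28.3% of detected genes. Matches of different motifs did not overlap each other. Of the 15 YY1 promoters, 13 had their match reaching past the start; in the bases before the start alone, 2.63% of members held one, against 2.15% of detected genes. NRF1 letters stood there in 14.5% of members against 8.84% of detected genes, and ETS letters in 26.3% against 14.8%. The median G and C content of member promoters was 56.0%, against 61.0% for detected genes, and their median ratio of observed to expected CpG was 0.83, against 0.76 for detected genes and 0.41 for all promoters. The NRF1 and ETS letters contain CpG, and the part of base composition in their shares was not tested.

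The windows below are the last 100 bases before the start on the gene's strand, 5′ to 3′, with matches in capitals. Atp5mc2 and Atp5mc1 are shown because they encode the same mature protein at the highest and lowest level of the 3 c subunit genes, Cox8a and Cox8b because they are a detected paralog and one that was not detected, and Ndufa11 and Sdha because each holds a pair of NRF1 matches, which overlap in Ndufa11. Coordinates are GRCr8.
Atp5mc2 (chr7:135678219-135678318, minus strand): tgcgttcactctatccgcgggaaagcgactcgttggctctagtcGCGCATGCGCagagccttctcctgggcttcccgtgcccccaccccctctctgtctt
Atp5mc1 (chr10:81523346-81523445, minus strand): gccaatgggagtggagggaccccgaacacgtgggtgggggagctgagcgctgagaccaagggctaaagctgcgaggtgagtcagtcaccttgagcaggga
Cox8a (chr1:213833624-213833723, minus strand): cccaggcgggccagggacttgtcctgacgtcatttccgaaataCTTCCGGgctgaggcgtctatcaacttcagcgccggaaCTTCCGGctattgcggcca
Cox8b (chr1:205408274-205408373, minus strand): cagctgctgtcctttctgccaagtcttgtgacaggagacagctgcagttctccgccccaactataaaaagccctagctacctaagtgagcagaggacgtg
Ndufa11 (chr9:1637514-1637613, plus strand): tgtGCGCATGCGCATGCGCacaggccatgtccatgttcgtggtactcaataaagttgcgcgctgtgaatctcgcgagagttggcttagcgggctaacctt
Sdha (chr1:30764453-30764552, plus strand): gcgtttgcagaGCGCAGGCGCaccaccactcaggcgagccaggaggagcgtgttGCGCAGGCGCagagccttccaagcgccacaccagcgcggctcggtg

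Atp5mc2, at 632 ± 22.2 TPM, held an NRF1 match that began 56 bases before the start, and Atp5mc1, at 295 ± 17.3 TPM, held none of the 3 motifs. Cox8a held ETS matches that began 57 and 19 bases before the start, and Cox8b held none. Presence of a match did not follow level throughout: Atp5f1b, the highest complex V member, held none, while Sdha, at 140 TPM, held a pair. A match describes the letters of the reference and says nothing on binding in these cells.

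**Figure D5:**
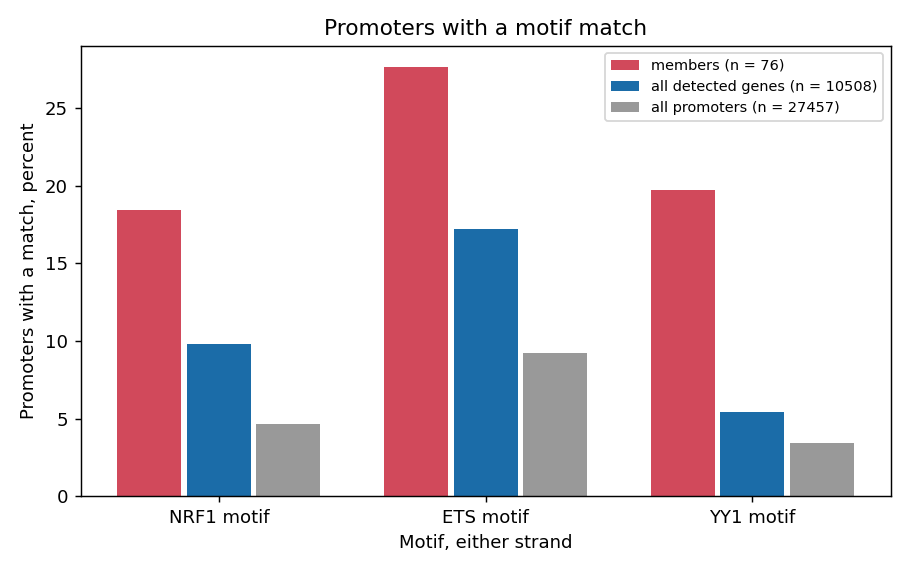
Percentage of promoters with at least 1 match on either strand (vertical) for 3 motifs (horizontal), in members, all detected genes and all promoters of the table. For each motif the member bar is the highest, 18.4% for NRF1, 27.6% for ETS and 19.7% for YY1.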

How the data were processed

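Polyadenylated RNA of 5 samples was sequenced. The submitters' processing notes name Salmon 1.5.1, Trim Galore 0.6.6, cutadapt 2.8 and the build mRatBN7.2; how strand and multi-mapping reads were handled is not stated there. The authors deposited a table of TPM per gene. Their transcript files give, per the file headers, estimated counts of reads and TPM of 98811 transcripts in each library.

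The table's TPM values were used for levels, and ratios are on the log2(TPM + 0.1) scale, which understates those of low genes. RefSeq names of GRCr8 matched 67330 transcripts (68.1%), and 2928 further transcripts were joined by value. Reads of a gene counted as recovered where its transcripts came within 10% of its TPM in every library: 16847 genes, holding 79.8% to 80.1% of reads, among them 78 members. Rounded estimated counts went to edgeR 4.0.16 (TMM, filterByExpr, intercept only; Poisson goodness of fit with Benjamini-Hochberg adjustment over all genes; tagwise dispersion), which was tested on simulated data. DESeq2 1.42.0 gave alternatives. Intervals cover counting error only.

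All samples form 1 group, with sign-flip tests exact and two-sided. Members and lists were chosen with earlier results of these data known. The text names the 3 highest and 2 lowest members per complex, all paired genes, members not detected, the 5 highest and 3 lowest BCV, and, of other pathway lists, the 3 highest and the undetected genes; Ndufa11, Ndufa4l2 and the LOC rows were named after their values were seen. Alternatives covered thresholds, pseudocounts, transcript sums, length division, normalization, filters, promoter windows and each library left out.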

Additional observations from a re-analysis of the deposited data

Results flagged for a closer look

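Each set of 5 library values was checked for a value far from the other 4 (Dixon's test, critical value 0.71). Of 114 sets, 3 were past it, where chance alone gives about 5.7 (1 in 20). Ndufa10, an accessory complex I subunit, was lowest in replicate 2 at 73.0 TPM, with the other libraries at 77.1 to 78.2 TPM. Ndufa13 was lowest in replicate 3 at 428 TPM, with the others at 456 to 467 TPM. Sdha was highest in replicate 4 at 146 TPM, with the others at 139 to 140 TPM. The 3 values came from different replicates.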

How the results depend on the processing

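No paired analysis was possible because the samples form 1 group. Detection of 81 members was the same at 0.5 and 5 TPM and was 78 with transcript sums. The median TPM of the members, 220, was 232 over detected members, 230 over listed subunits and 216 with transcript sums, and the summed TPM was 24058 with transcript sums, which hold named transcripts alone. The median BCV was 4.4% with DESeq2's dispersion, beside 6.05% over all genes tested, and 3.41% to 4.08% when each library was left out. The YY1 share was 2.63% in bases before the start only, beside 2.15% of detected genes; those of NRF1 and ETS were 14.5% and 26.3%, beside 8.84% and 14.8%. In reads not divided by length, 3 of 20 pairs reversed: Cox7a2 to Cox7a2l (-1.55), Sdha to Sdhb (0.64) and Ndufv1 to Ndufv2 (1.04, all log2). A further 13 moved by more than their SD, among them Atp5if1 to Atp5f1b (-2.84), Ndufs1 to Ndufv1 (-0.41) and Atp5mc3 to Atp5mc2 (-0.07), so the sizes of pair ratios hold per length. No pair reversed under another pseudocount, with transcript sums or without any 1 library, though Cox7a2 to Cox7a2l rose to 5.37 with transcript sums, in which the unnamed form that holds 97.0% of Cox7a2l is missing. The number of members varying beyond counting error was 19 to 22 with other size factors, 17 without a filter and 13 to 20 without 1 library. Without a filter this was 21.8% of members and 20.6% of all genes tested, so members were then not below the background. Depth limits the paralogs of few reads: a gene such as Cox8b rests on 7 reads. Levels of short messages depend on the estimated effective length, and the 14 members without recovered reads or with too few of them were not tested for spread.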
